A study of Homo sapiens with 6 samples.

Results

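The genes that carry out protein processing in the endoplasmic reticulum (ER) were examined in cells with wild-type or S34F mutant U2AF1. The members were chosen by the KEGG term for this pathway in the deposited table, which names 161 genes. Genes whose symbol starts with HSP or DNAJ, and BAX, BAK1, BCL2, ATF4 and DDIT3, were left out, which removed 28 genes and left 133. The mean level over the 6 libraries also chose the members, since a mean of at least 1 FPKM (fragments scaled by transcript length and by the mapped fragments of the library) was required. This left 114 members of the 31142 genes in the table, of which 10942 reached the same mean level and were tested. The members just inside this limit were EIF2AK3 with a mean of 1.21 FPKM, SEC24D with 1.44 and ERN1 with 1.57, and the genes just outside it were SEC61A2 with 0.876, MAP3K5 with 0.758 and MBTPS2 with 0.680.

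U2AF1 is a splicing factor that recognises the end of introns, and S34F is a recurrent mutation of it in myeloid disease. RNA was sequenced from 6 samples labelled SKM-1, a cell line from an acute myeloid leukemia that followed a myelodysplastic syndrome, with 3 samples labelled S34F mutant U2AF1 and 3 labelled wild type (WT), all taken at 96 h. In both groups the gene was added by a FLAG-tagged lentiviral vector to cells that keep their own wild-type U2AF1, so the groups share the vector and differ in the U2AF1 form it carries, although the WT titles carry the prefix NC and the protocol speaks of a vehicle control. The labels do not say whether the 3 samples of a group came from separate cultures, so p-values measure the spread between these samples, which may be technical. Approximate depths lay between 20.5 and 26.1 M fragments. Of 12 monocytic markers 5 reached a mean of 1 FPKM, and MPO, S100A8 and FCN1 were at or near 0. All 12 erythroid markers did, with a median of 551.4 FPKM, which goes against the label SKM-1, so the cells are called by their labels here. The summed monocytic markers ranged from 58.0 to 84.0 FPKM in the S34F libraries and from 80.0 to 99.3 in the WT libraries, and the summed erythroid markers from 12140 to 13910 and from 11750 to 12840. ITGAM and CD33 had every S34F library below every WT library, where 3.73% of all genes did. Their log2 fold changes (S34F minus WT) were -0.52 and -0.33. The monocytic markers CD68, LYZ and SPI1 overlapped, at -0.33, -0.52 and -0.17. The part of these markers in the results was not tested.

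Proteins bound for the cell surface, the secretory pathway or the membrane enter the ER through the SEC61 channel, receive a glycan from the oligosaccharyltransferase, and fold with the help of lectins such as calnexin and calreticulin and of protein disulfide isomerases. Folded cargo leaves in COPII vesicles, while proteins that do not fold are drawn back to the cytosol by VCP, tagged with ubiquitin and degraded, a route called ER-associated degradation. When unfolded proteins accumulate, the sensors PERK (EIF2AK3), IRE1 (ERN1) and ATF6 slow translation and switch on genes for folding and degradation, partly through XBP1 and ATF6 acting at ER stress response elements in promoters.

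Promoter sequences show which members carry such an element near the gene start, and they are printed for the 6 members in which one was found because 4 of these members are among the abundant lectins, isomerases and chaperones of the ER and the other 2 are classical stress targets. Windows from 250 bases before to 50 bases after RefSeq gene starts (GRCh38.p14) were available for 96 of the 114 members. The ER stress response element, CCAAT followed by any 9 bases and CCACG, was searched on both strands and was found in CALR, CANX, PDIA6 and XBP1. These are 4.17% of the matched members, against 25 of 27305 genes (0.0916%) in the whole promoter table. A second form, ATTGG, 1 base and CCACG, was searched after the values of HERPUD1 were known. It was found in HERPUD1 and HYOU1, which are 2.08% of the matched members, against 19 of 27305 genes (0.0696%). The part CCACG alone was found in 65 of 96 members (67.7%) and in 42.1% of all genes. For all 3 searches, the genes of the promoter table were not limited by level. They were also not matched to the members by number of windows, so the shares are not of like genes. These elements are known from the genes of ER chaperones, so their presence in this pathway is no independent finding, and a match is a description of letters and not of a bound site. Capitals mark the element, read along the strand of the gene.

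CALR at chr19:12938359-12938432, plus strand, element on the opposite strand: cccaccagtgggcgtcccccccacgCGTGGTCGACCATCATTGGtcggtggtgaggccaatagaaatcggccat
CANX at chr5:179698748-179698826, plus strand: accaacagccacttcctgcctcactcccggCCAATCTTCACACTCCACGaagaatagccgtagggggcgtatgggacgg
PDIA6 at chr2:10812823-10812901, minus strand: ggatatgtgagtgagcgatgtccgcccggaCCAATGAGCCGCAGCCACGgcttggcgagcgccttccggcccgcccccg
XBP1 at chr22:28800573-28800651, minus strand: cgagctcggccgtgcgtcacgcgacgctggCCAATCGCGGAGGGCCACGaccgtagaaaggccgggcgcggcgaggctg
HERPUD1 at chr16:56931995-56932065, plus strand: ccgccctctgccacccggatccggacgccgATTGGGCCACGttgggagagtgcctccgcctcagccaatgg
HYOU1 at chr11:119057244-119057314, minus strand, element on the opposite strand: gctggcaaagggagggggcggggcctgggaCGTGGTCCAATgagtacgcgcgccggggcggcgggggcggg

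In XBP1 the element ended 34 bases before the gene start and in PDIA6 68 bases before it, and HYOU1 held a second match further upstream.

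The members were expressed over a wide range, from 1.21 to 581.3 FPKM with a median of 12.4. Means of at least 50 FPKM were reached by 21 members, and 26 lay under 5 FPKM. The most abundant was CALR (calreticulin, a calcium-binding lectin of the lumen), followed by RNF5 (a ubiquitin ligase of the ER membrane, whose level is uncertain because a near-identical pseudogene shares reads with it) with a mean of 240.3 FPKM, DDOST (a subunit of the oligosaccharyltransferase) with 163.9 and GANAB (the catalytic subunit of glucosidase II) with 162.3. The sensors EIF2AK3 and ERN1 were among the least abundant members, while the sensor ATF6 had a mean of 9.28 FPKM. Of the 133 genes 19 lay below the level limit, among them CKAP4 with 0.0924 FPKM, WFS1 with 0.144 and DERL3 with 0.357.

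The first question was whether the members differed between S34F and WT cells. Only MAN1A1 and RNF185 passed an unadjusted p under 0.05 (limma on log2(FPKM + 1)), which is 2 of 114 members or 1.75%, against 2.39% of all genes tested. MAN1A1 was higher and RNF185 lower in S34F cells. RNF185 alone also passed a fold change of 1.5, where 0.585% of all genes did. After Benjamini-Hochberg adjustment over all genes in limma, 0 members and 0 of 10942 genes had an adjusted p under 0.05. In bulk RNA, fewer cells of a type and less RNA per cell cannot be told apart.

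MAN1A1 encodes a mannosidase that trims mannose from N-glycans after their transfer. Its level was 11.7, 11.3 and 12.2 FPKM in the S34F libraries and 9.90, 9.53 and 8.80 FPKM in the WT libraries. Every S34F library lay above every WT library. The log2 fold change was 0.29 with an SE of 0.0989 (limma, unadjusted p = 0.0225, adjusted p = 1.0; exact permutation p = 0.1, the smallest that 3 against 3 allow). Without S34F replicate 1 the log2 fold change was 0.29 with an unadjusted p of 0.0608, and without WT replicate 2 it was 0.30 with 0.0653, so the size of the difference held while the p no longer passed 0.05.

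RNF185 encodes a ubiquitin ligase of the ER membrane that works in ER-associated degradation. It read 2.05, 2.71 and 4.26 FPKM in the S34F libraries and 9.21, 3.35 and 11.8 FPKM in the WT libraries. WT replicate 2 lay below S34F replicate 3, so the groups overlapped, and the ratio of the highest to the lowest library, 5.74, was the largest of any member. The log2 fold change was -1.09 with an SE of 0.412 (limma, unadjusted p = 0.0345, adjusted p = 1.0; exact permutation p = 0.2). The p passed 0.05 without S34F replicate 3 and without WT replicate 2, but it was 0.099 without S34F replicate 1, 0.0753 without S34F replicate 2, 0.0967 without WT replicate 1 and 0.123 without WT replicate 3. Its close relative RNF5, 249.7, 235.3 and 229.6 FPKM in S34F and 239.9, 226.2 and 261.1 in WT, had overlapping groups and a log2 fold change of -0.02.

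**Figure D1:**
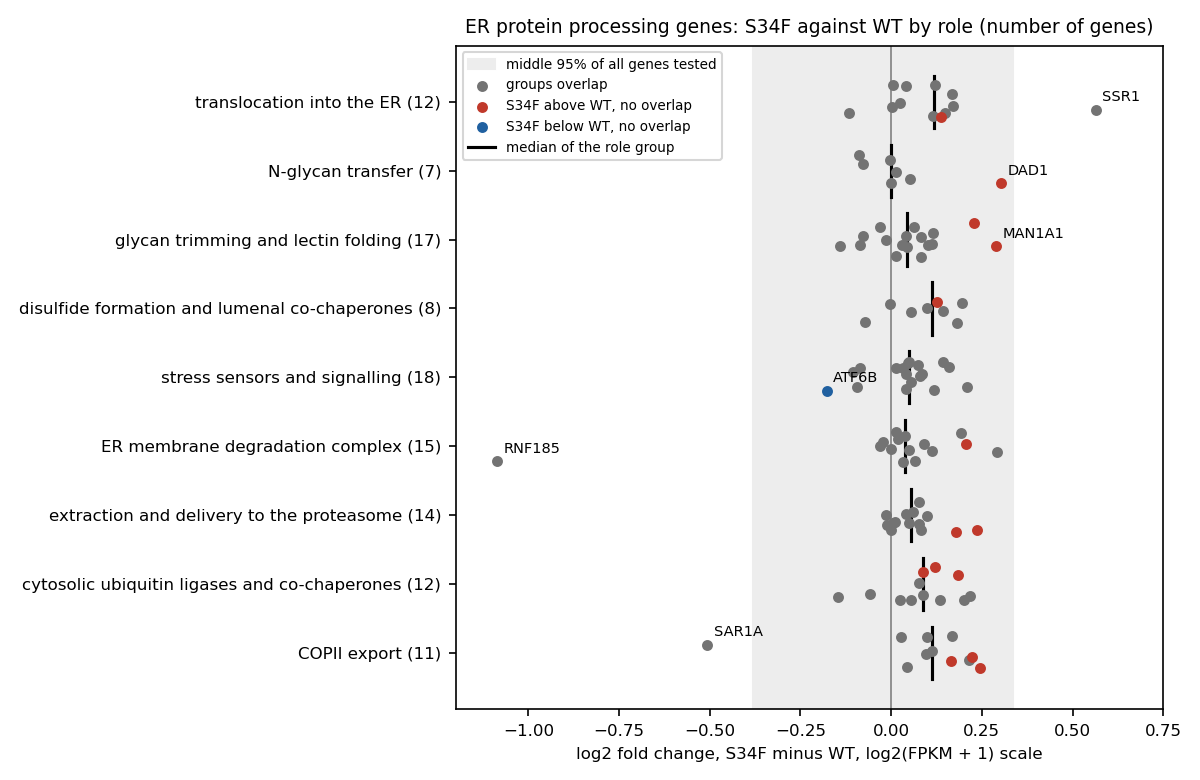
Log2 fold change (S34F minus WT, log2(FPKM + 1) scale) of each of the 114 members, in rows by role with the number of genes. Points are genes, coloured by whether the 3 S34F libraries all lay above or below the 3 WT libraries, black lines are medians of a role group and the grey band holds the middle 95% of all genes tested. RNF185 at -1.09, SAR1A at -0.51 and SSR1 at 0.56 lie outside the band, and all other members lie inside it.

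The differences of the members were small and mostly above 0. The median log2 fold change was 0.06 over the members and 0.01 over all genes tested, 88 of 114 members (77.2%) lay above 0 against 54.6% of all genes, and 108 members (94.7%) lay within 0.25 of 0 against 89.5% of all genes. The S34F libraries all lay above the WT libraries for 14 members (12.3%), where 3.66% of all genes did, and all lay below for 1 member (0.877%), where 3.73% did. Of the 114 members, 16 lay above and 0 below under median-ratio scaling, where 3.88% and 4.04% of all genes did. Under upper quartile scaling 11 lay above and 1 below, where 2.97% and 4.45% of all genes did. Without the third replicates, 29 members (25.4%) lay above and 22 (19.3%) below, against 24.8% and 26.6% of all genes, so the share above was then near the background. Leaving out S34F replicate 3 alone took the median log2 fold change of the members to 0.007, against 0.0114 over all genes. Without the third replicates of both groups these medians were 0.0156 and -0.0077.

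The 14 members above were spread over 8 of 9 roles. They were SEC23A, SEC24A and SEC24B of the COPII coat, the degradation enzyme UBE2J1, DAD1 of the oligosaccharyltransferase, BAG2, RBX1 and UBE2D3 of the cytosolic ubiquitin system, the isomerase PDIA6, NGLY1 and YOD1, which act on proteins drawn out of the ER, CANX and MAN1A1 of the glycan cycle and SSR3 of the translocon. Those other than DAD1, MAN1A1, SEC23A, YOD1 and CANX were named after their values were seen. Apart from MAN1A1, none passed an unadjusted p under 0.05.

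Translocation into the ER was represented by 12 members, with a median log2 fold change of 0.12, and 0 of them passed an unadjusted p under 0.05. SEC61B, a subunit of the channel and the most abundant of them, read 66.0, 75.4 and 112.6 FPKM in S34F and 74.2, 73.5 and 79.8 in WT. The groups overlapped, and the log2 fold change was 0.12 with an SE of 0.196. SSR1, which encodes a subunit of the translocon-associated protein complex, read 4.23, 10.8 and 11.6 FPKM in S34F and 4.46, 7.09 and 4.48 in WT. S34F replicate 1 lay just below the lowest WT library, and the other S34F libraries lay above all of them. The log2 fold change of 0.56 had an SE of 0.356 (limma, unadjusted p = 0.158), and it depended on single libraries. It was 0.97 (unadjusted p = 0.00351) without S34F replicate 1, 0.34 (unadjusted p = 0.412) without S34F replicate 3, 0.38 (unadjusted p = 0.365) without S34F replicate 2 and 0.24 (unadjusted p = 0.631) without the third replicates of both groups.

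The oligosaccharyltransferase and related genes numbered 7, with a median log2 fold change of 0.00 and 0 calls. DAD1, a small subunit of the enzyme, read 96.3, 105.8 and 126.6 FPKM in S34F and 80.3, 91.1 and 93.3 in WT. The groups did not overlap, with the lowest S34F library just above the highest WT library. The log2 fold change was 0.30 with an SE of 0.131 (limma, unadjusted p = 0.0547, adjusted p = 1.0), and it was the only member whose call the pairing changed, since a replicate block gave an unadjusted p of 0.0176. By limma without the block, the log2 fold change was 0.39 (unadjusted p = 0.0311) without S34F replicate 1, 0.19 (unadjusted p = 0.0943) without S34F replicate 3 and 0.24 (unadjusted p = 0.180) without WT replicate 1. DDOST, a second subunit, read 161.3, 163.1 and 152.1 FPKM in S34F and 162.1, 167.9 and 176.8 in WT, which overlapped, with a log2 fold change of -0.09.

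Glycan trimming and lectin-assisted folding took in 17 members with a median log2 fold change of 0.04, of which MAN1A1 was the 1 call. CANX (calnexin, the membrane-bound lectin) read 94.5, 94.1 and 126.8 FPKM in S34F and 87.1, 88.4 and 90.6 in WT. The groups did not overlap, but S34F replicate 3 stood well above the rest, and the log2 fold change of 0.23 (SE 0.137, limma unadjusted p = 0.138) was 0.09 without that library. CALR read 540.4, 534.3 and 718.4 FPKM in S34F and 502.5, 505.7 and 686.1 in WT. The third replicate was the highest of each group, and replicates 1 and 2 were higher in S34F than in WT by less than the third replicates stood above them. Its log2 fold change was 0.08 with an SE of 0.172.

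Among the 8 disulfide isomerases and lumenal co-chaperones the median log2 fold change was 0.11, with 0 calls. ERP29, the most abundant, read 91.4, 96.9 and 130.0 FPKM in S34F and 99.6, 103.6 and 129.9 in WT, so the third replicates were alike and higher in both groups. PDIA6, an isomerase, read 93.2, 91.4 and 94.1 FPKM in S34F and 82.7, 89.3 and 83.2 in WT, without overlap and without a high replicate 3. Its log2 fold change was 0.13 with an SE of 0.088 (limma, unadjusted p = 0.196).

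**Figure D2:**
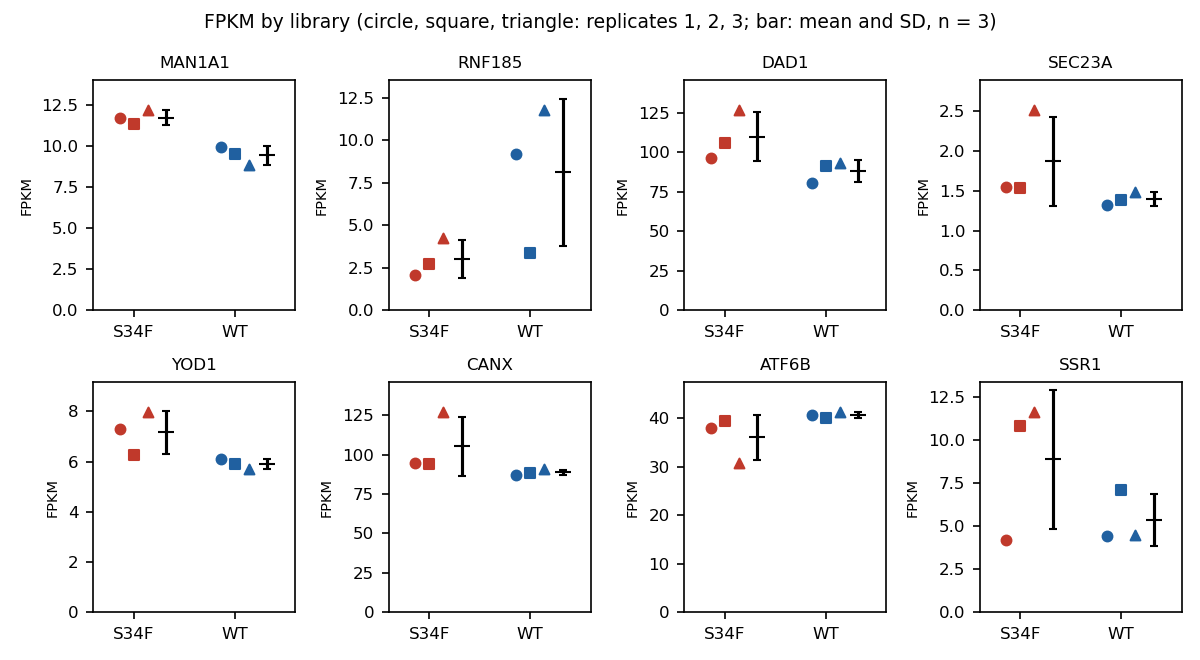
FPKM of 8 members in every library, S34F in red and WT in blue, with circles, squares and triangles for replicates 1, 2 and 3 and a bar for the mean and SD (n = 3). The groups do not overlap for MAN1A1, DAD1, SEC23A, YOD1, CANX and ATF6B, and they overlap for RNF185 and SSR1.

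Stress sensing and signalling was represented by 18 members with a median log2 fold change of 0.05 and 0 calls. EIF2AK3 (PERK) read 0.980, 1.10 and 2.10 FPKM in S34F and 1.08, 0.818 and 1.21 in WT. ERN1 (IRE1) read 1.28, 1.28 and 2.32 FPKM in S34F and 1.25, 1.39 and 1.90 in WT. Both had overlapping groups in which replicate 3 was the highest, and their log2 fold changes were 0.21 (SE 0.190) and 0.05 (SE 0.186). ATF6 read 9.44, 9.39 and 9.88 FPKM in S34F and 9.17, 9.78 and 8.04 in WT, with overlap and a log2 fold change of 0.08 (SE 0.108). ATF6B, a relative of ATF6, was the only member whose S34F libraries all lay below the WT libraries, at 37.9, 39.5 and 30.7 FPKM against 40.7, 40.0 and 41.2. Its log2 fold change was -0.18 (SE 0.121, limma unadjusted p = 0.186) and -0.07 without S34F replicate 3, and under median-ratio scaling its groups overlapped.

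The downstream members of these branches did not separate the groups either. XBP1, the transcription factor made active by IRE1, read 31.4, 41.3 and 65.1 FPKM in S34F and 37.6, 27.2 and 58.9 in WT, a log2 fold change of 0.16 (SE 0.344). PPP1R15A (GADD34, which reverses the translational arrest set by PERK) read 91.1, 91.5 and 170.4 FPKM in S34F and 91.6, 90.3 and 127.5 in WT, a log2 fold change of 0.14 (SE 0.272). In both genes the third replicate was the highest of its group. EIF2S1, the translation factor that PERK phosphorylates, read 27.7, 29.9 and 32.6 FPKM in S34F and 29.4, 30.04 and 23.6 in WT. NFE2L2 (NRF2, another substrate of PERK) read 4.19, 3.63 and 5.29 FPKM in S34F and 4.41, 4.49 and 3.95 in WT. Their log2 fold changes were 0.12 and 0.01, with overlap and no high replicate 3 in WT. The values are transcript levels per gene, so splicing of XBP1 and phosphorylation of the sensors were not measured.

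The ER membrane degradation complex had 15 members with a median log2 fold change of 0.04, and RNF185 was the 1 call. HERPUD1, which binds the ligase SYVN1 and is a classical stress target, read 4.60, 4.51 and 19.4 FPKM in S34F and 4.92, 4.87 and 8.90 in WT. S34F replicate 3 stood above the other 5 libraries by far and WT replicate 3 came next. The log2 fold change was 0.29 with an SE of 0.524 and turned to -0.33 without S34F replicate 3, with no call in either fit (limma, unadjusted p = 0.595 and 0.233).

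The 14 members of extraction and delivery to the proteasome had a median log2 fold change of 0.05 and 0 calls. VCP, the ATPase that pulls proteins out of the membrane, read 86.3, 80.9 and 75.6 FPKM in S34F and 80.2, 82.5 and 78.9 in WT, with a log2 fold change of 0.01 (SE 0.0945). YOD1, a deubiquitinase that works with VCP, read 7.29, 6.24 and 7.96 FPKM in S34F and 6.10, 5.90 and 5.72 in WT. It did not overlap, at a log2 fold change of 0.24 (SE 0.115, limma unadjusted p = 0.0802). Leaving out 1 library gave values from 0.17 to 0.32 with an unadjusted p from 0.0434, without S34F replicate 2, to 0.175, without S34F replicate 1.

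The 12 cytosolic ubiquitin enzymes and co-chaperones had a median log2 fold change of 0.09 and 0 calls. UBE2D2, a ubiquitin-conjugating enzyme, read 31.6, 33.1 and 38.6 FPKM in S34F and 33.1, 32.6 and 31.8 in WT, with overlap and a log2 fold change of 0.08 (SE 0.109).

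The COPII coat and its partners, which carry folded cargo out of the ER, numbered 11 with a median log2 fold change of 0.11 and 0 calls. SEC24C, a cargo-binding subunit and the most abundant of them, read 36.7, 47.8 and 50.1 FPKM in S34F and 42.7, 37.7 and 51.6 in WT, with a log2 fold change of 0.03. SEC23A, the subunit that activates the SAR1 GTPase, read 1.55, 1.54 and 2.51 FPKM in S34F and 1.32, 1.38 and 1.48 in WT, without overlap. Its log2 fold change was 0.24 (SE 0.151, limma unadjusted p = 0.150), and 0.09 (unadjusted p = 0.342) without S34F replicate 3. SAR1A, chosen after its values were seen because it had the second lowest log2 fold change, read 12.6, 5.39 and 7.55 FPKM in S34F and 12.5, 12.6 and 10.6 in WT. S34F replicate 1 sat among the WT libraries and the log2 fold change was -0.51 (SE 0.265, limma unadjusted p = 0.0981).

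Replicates of the same group also differed in these genes. Replicate 3 was the highest of the S34F libraries for 79 of 114 members (69.3%), where 43.9% of all genes showed this. It was the highest of the WT libraries for 55 members (48.2%), against 33.1%, and the highest in both groups for 42 members (36.8%), against 21.3%. It was the lowest S34F library for 28 of 114 members and the lowest WT library for 45, against 4761 and 5492 of 10942 genes. It was the lowest in both groups for 12 members (10.5%), against 29.4% of all genes. These shares are a description with no test, and the third replicates were known to stand apart before the members were examined. The numbers 1 to 3 mark the same samples throughout, but the labels give no batch or date for them.

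On the log2 scale, replicate 3 exceeded the mean of replicates 1 and 2 by a median of 0.20 over the members in S34F and 0.03 in WT, while the medians over all genes were 0.00 and -0.06. Under median-ratio scaling the medians of the members were 0.15 and 0.08, and under upper quartile scaling 0.22 and 0.08, so both kept their sign. The summed FPKM of the members was 3985, 3930 and 4539 in the S34F libraries and 3833, 3843 and 4305 in the WT libraries, which was 1.17%, 1.14% and 1.35% and 1.10%, 1.11% and 1.22% of all FPKM. Replicate 3 was thus the highest of its group, and the sums of replicates 1 and 2 were slightly higher in S34F than in WT.

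**Figure D3:**
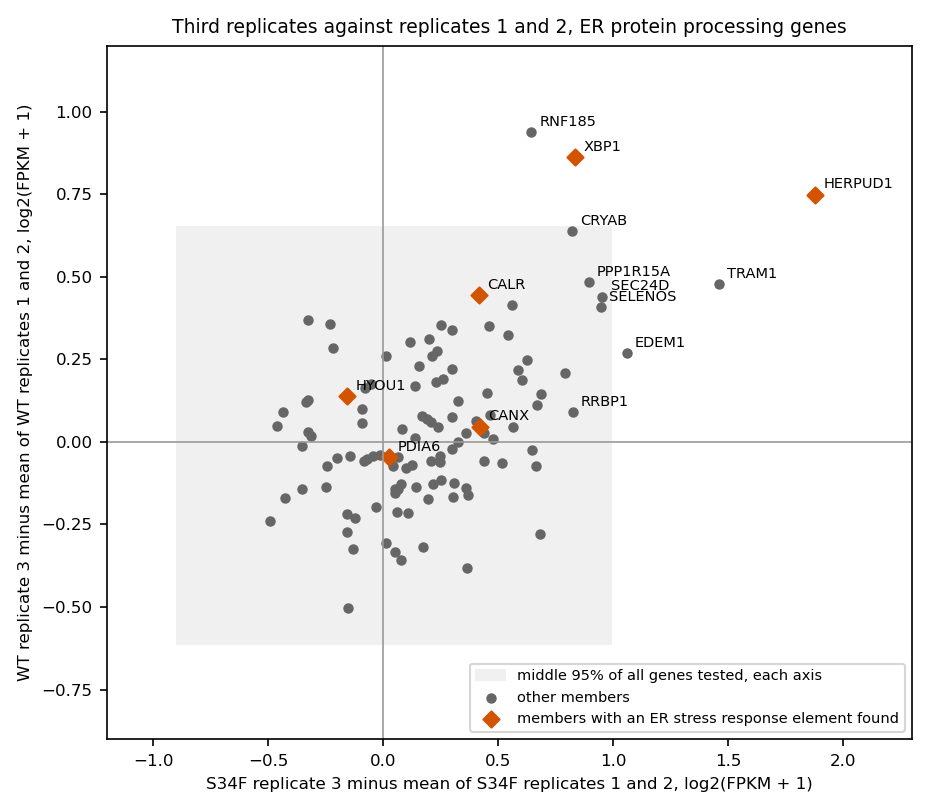
Replicate 3 minus the mean of replicates 1 and 2 on the log2(FPKM + 1) scale for the 114 members, S34F on the horizontal and WT on the vertical axis. The grey box spans the middle 95% of all genes tested on each axis and diamonds mark the 6 members with an element found in the promoter. HERPUD1 (1.88 and 0.75), TRAM1 (1.46 and 0.48) and EDEM1 (1.06 and 0.27) lie furthest to the right, and XBP1 (0.84 and 0.86) is high on both axes.

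The members with the largest differences of this kind in S34F come from several roles. In S34F and WT the log2 difference was 1.88 and 0.75 for HERPUD1, 1.46 and 0.48 for TRAM1, 1.06 and 0.27 for EDEM1, 0.95 and 0.44 for SEC24D, 0.95 and 0.41 for SELENOS, 0.89 and 0.48 for PPP1R15A and 0.84 and 0.86 for XBP1. In WT the largest difference of any member was that of RNF185, at 0.94, beside 0.64 in S34F. EDEM1, SELENOS, SEL1L, RRBP1 and CRYAB were named after their values were seen. TRAM1, a membrane protein beside the translocon, read 18.1, 10.5 and 39.8 FPKM in S34F and 17.7, 17.4 and 24.8 in WT. SEC24D, a COPII cargo subunit, read 1.05, 1.02 and 2.94 FPKM in S34F and 1.05, 0.902 and 1.68 in WT. Both had their highest value in S34F replicate 3 and the next in WT replicate 3, with log2 fold changes between groups of 0.01 and 0.21.

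EDEM1, a lectin that hands misfolded glycoproteins to degradation, read 3.52, 3.52 and 8.42 FPKM in S34F and 4.30, 4.09 and 5.25 in WT. SELENOS, a selenoprotein that anchors VCP at the membrane, read 12.6, 12.1 and 24.7 FPKM in S34F and 12.9, 13.1 and 17.6 in WT. In both genes replicates 1 and 2 were close to each other in each group, and lower in S34F than in WT. SEL1L, the partner of SYVN1, read 2.01, 2.14 and 4.31 FPKM in S34F and 2.03, 2.12 and 2.56 in WT, and SYVN1 itself 15.2, 14.5 and 22.4 in S34F and 14.9, 13.8 and 19.5 in WT. RRBP1, a ribosome-binding protein, had differences of 0.82 and 0.09, and CRYAB, a small heat shock protein, of 0.82 and 0.64.

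**Figure D4:**
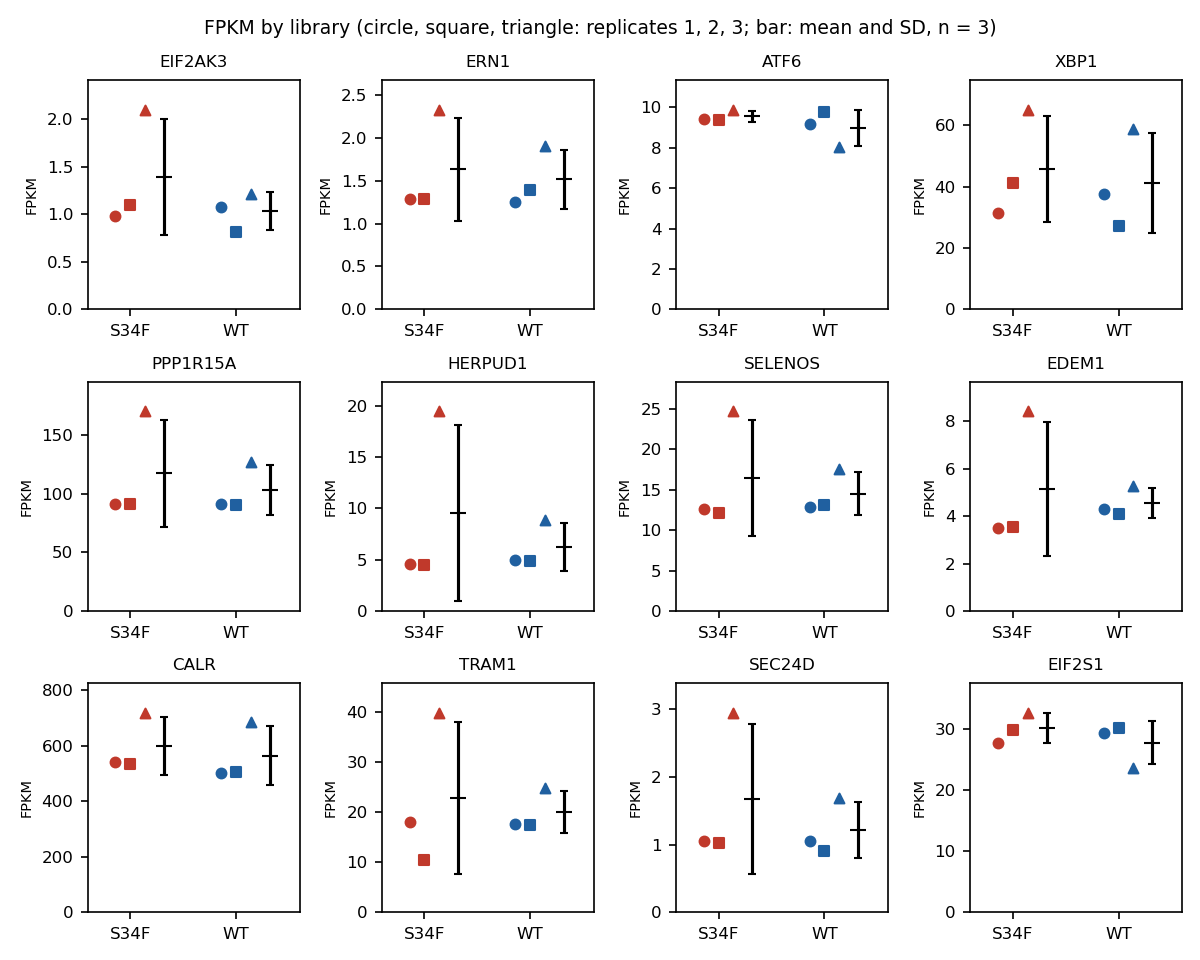
FPKM of the sensors, stress targets and other members in every library, S34F in red and WT in blue, with circles, squares and triangles for replicates 1, 2 and 3 and a bar for the mean and SD (n = 3). The triangle of S34F is the highest point of every panel, and the triangle of WT is the lowest WT point for ATF6 and EIF2S1.

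By role, replicate 3 was the highest S34F library for 11 of the 12 translocation members, with a median difference of 0.44, and the highest WT library for 8 of them, with 0.10. For the 14 extraction members it was the highest S34F library in 11 and the highest WT library in 5, with medians of 0.20 and -0.03. For the 7 genes of N-glycan transfer it was the highest in 4 and 3, with medians of 0.07 and 0.00. For the 8 disulfide and lumenal members it was the highest in 5 and 6, with medians of 0.07 and 0.16. For the 12 cytosolic ubiquitin members it was the highest in 8 and 3, with medians of 0.24 and -0.06, and the lowest WT library in 9. Over all genes it was the highest in 43.9% in S34F and 33.1% in WT. Differences between roles were not tested. Across the members, log2 levels correlated at 0.984 between the third replicates of both groups and at 0.972 and 0.974 between S34F replicate 3 and the other S34F libraries. WT replicate 3 correlated more closely with WT replicates 1 and 2, at 0.992 and 0.987, than with S34F replicate 3. The value was 0.996 between S34F replicate 1 and WT replicate 2, over 114 genes that share their libraries.

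The members that hold a promoter element were not alike in this respect. HERPUD1, XBP1 and CALR, the last at 0.42 and 0.44, were higher in the third replicate of both groups. CANX was higher in S34F replicate 3 (0.42) and hardly in WT replicate 3 (0.05). PDIA6 (0.03 and -0.05) and HYOU1 (-0.16 and 0.14) were close to 0.

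As the third replicates stood apart, S34F and WT were compared again with replicates 1 and 2 alone. By limma, 11 members had an unadjusted p under 0.05 (9.65%), where 16.9% of all genes did. None had an adjusted p under 0.05, the lowest being 0.163 for PDIA4, while 8 genes of all 10942 did. The share of members called was thus below that of all genes, and the members named next are a description, not a result about the pathway. Of the 11, 8 were higher in S34F. PDIA4, an isomerase, read 82.5 and 80.4 FPKM in S34F against 70.2 and 71.0 in WT, a log2 difference of 0.20 (SE 0.0397, unadjusted p = 0.0071). HYOU1, a chaperone of the lumen, read 51.3 and 59.9 against 44.2 and 46.8, and PRKCSH, the second subunit of glucosidase II, read 94.1 and 90.5 against 82.5 and 83.3. MAN1A1, SIL1, FBXO6, CALR and CANX were the other members higher in S34F.

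The 3 members lower in S34F in this comparison were EDEM1, EDEM2 and OS9. EDEM1 had a log2 difference of -0.20 (SE 0.0606, limma unadjusted p = 0.0304, adjusted p = 0.251). EDEM2, a mannosidase that starts the trimming of misfolded glycoproteins, read 42.1 and 41.2 FPKM in S34F against 46.3 and 45.4 in WT. OS9, a lectin of the degradation complex, read 34.01 and 32.04 against 40.3 and 36.6. Other members with like functions did not pass, with log2 differences of 0.00 for the lectin ERLEC1 (unadjusted p = 0.991), -0.11 for EDEM3 (unadjusted p = 0.308) and -0.09 for the mannosidase MAN1B1 (unadjusted p = 0.4003) by limma. With the third replicates these differences were within the spread, as S34F replicate 3 was the highest library for EDEM1 (8.42 FPKM), EDEM2 (48.3) and OS9 (53.8), and WT replicate 3 reached 87.2 FPKM for PDIA4 and 101.2 for PRKCSH, above S34F replicates 1 and 2. All of these calls rest on 2 libraries a group.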

How the data were processed

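RNA-seq of 6 libraries was used. The authors deposited 1 table of FPKM for 31142 genes, with StringTie and edgeR named in the submitters' processing notes. The aligner, genome build and annotation are not given in the sources used here. Although the table is named for raw counts, 100% of its nonzero values had a fractional part, and the column headings say FPKM. Its fold change, p-value and q-value columns, which the authors computed, were not used.

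Levels were tested as log2(FPKM + 1) with limma 3.58.1 (R 4.3.3, empirical Bayes with a mean trend) over the 10942 genes with a mean of at least 1 FPKM, adjusted over all of them by Benjamini-Hochberg. A fold change on this scale understates the change of low genes. Single values also had a two-sided exact permutation test. The fit was tested on simulated data. Depth was approximated from the FPKM that 1 fragment gives in single-exon genes with 1 transcript in GENCODE 29. FPKM carry no counts, so no counting interval is given. Promoters were matched by symbol to RefSeq.

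A pairing of the samples by replicate number was considered, because deviations from the group means correlated at 0.212, 0.174 and 0.38 for the same numbers. Differently numbered libraries also correlated, at 0.197 (S34F 2 with WT 1) and 0.134 (S34F 1 with WT 2), so only number 3 stands apart and numbers 1 and 2 are not told apart. The main fit and the permutation tests did not pair the samples, so every SE and p is unpaired unless the block is named. A replicate block, which pairs the samples by number, was run as an alternative. By limma with the block, 4.05% of all genes had an unadjusted p under 0.05, against 2.39% without it. Named were members with an unadjusted p under 0.05, the 5 largest rises and falls without overlap, the most abundant member of each role, 7 sensors and effectors, the 5 with the widest ratio between libraries, and genes beside the level limit. Genes outside these rules were picked with their values in view. Members, role lists and tests were chosen with earlier results of these data known.

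As alternatives, values were rescaled by median ratios, by upper quartiles or by quantiles, and the fit was run with a pseudocount of 0.1, no filter and a filter at 5 FPKM, no trend, robust empirical Bayes, the block, and libraries left out. Other steps used scipy 1.17.1, pandas 2.3.3, numpy 2.4.6 and matplotlib 3.10.9 in Python 3.11.15.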

Additional observations from a re-analysis of the deposited data

How the results depend on the processing

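By limma, 2 members (1.75%) had an unadjusted p under 0.05, against 2.39% of all genes. The number was 1 (0.877%) with no filter on low values, against 2.9% of all genes. It was 11 (9.65%) without the third replicates of both groups, against 16.9%. When 1 library was left out it lay between 1 and 4. The 4 (3.51%) came without S34F replicate 3, where 10.6% of all genes passed. With the replicate block that pairs the samples by number it was 3 (2.63%), against 4.05% of all genes. The block added DAD1 and changed no other call among the members. The number that also passed a fold change of 1.5 was 1 of 114, where 0.585% of all genes did. It was 0 with no filter, 0 without the third replicates of both groups and between 0 and 2 when 1 library was left out. The share of all genes was not counted for these alternatives. Members whose groups did not overlap numbered 15, with 12.3% above and 0.877% below, against 3.66% and 3.73% of all genes. Without the third replicates of both groups they numbered 51, with 25.4% above and 19.3% below, against 24.8% and 26.6% of all genes. Leaving out 1 library gave between 16 and 36 of them, since smaller groups overlap less. There were 23 without S34F replicate 1, 36 without S34F replicate 3 and 25 without WT replicate 2. With 1 library left out the share of all genes was not counted, so these numbers show nothing particular to the members. Of 411 alternative values for 26 named members, 358 kept their direction and side of the threshold, 8 lost a p under 0.05, 6 gained one, and 39, with no p under 0.05, changed sign. The cause of these changes was not tested. The filters, no trend, robust empirical Bayes and the block leave the log2 fold change as it was, so direction could not change in those fits. Only MAN1A1 and RNF185 had an unadjusted p under 0.05 in the main fit that could be lost. EIF2AK3, ERN1 and SEC24D lie closest above the limit of 1 FPKM. The number of fragments behind each level is not known, and 3 libraries a group limit every comparison.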

Other observations

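The genes of the same KEGG term that were left out by name showed the difference of the third replicates too. Of 28 such genes 24 were tested, 0 had an unadjusted p under 0.05 between S34F and WT by limma, and their median log2 fold change was 0.10. Replicate 3 was the highest library in both groups for 15 of the 24. HSPA1A, a cytosolic chaperone of the heat shock response whose reads are hard to separate from those of its near-identical copy HSPA1B, read 208.8, 201.1 and 952.5 FPKM in S34F and 170.9, 185.6 and 877.2 in WT. The third replicates were several times higher in each group and close to each other. DDIT3 (CHOP, a transcription factor of prolonged ER stress) read 20.1, 15.7 and 79.0 FPKM in S34F and 23.7, 25.9 and 45.7 in WT. HSPA5 (BiP, the main chaperone of the lumen, with an ER stress response element found in its promoter window) read 151.5, 148.3 and 221.3 FPKM in S34F and 121.2, 126.6 and 175.5 in WT, with a log2 fold change of 0.29 (SE 0.208, limma unadjusted p = 0.202). Replicate 3 was the lowest S34F library for 5 of the 24, the lowest WT library for 5 and the lowest in both groups for 2. HSP90AB1, an abundant cytosolic chaperone, was lowest in both, at 1134, 1142 and 999 FPKM in S34F and 1090, 1106 and 994.5 in WT.

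A list of 20 stress-response genes outside the KEGG term gave 19 tested genes, with 0 at an unadjusted p under 0.05 by limma and a median log2 fold change of 0.10. Replicate 3 was the highest in both groups for 13 of them. SLC3A2, an amino acid transporter chain, read 58.7, 53.9 and 180.5 FPKM in S34F and 54.6, 55.2 and 99.96 in WT. MANF, a secreted protein of the lumen, read 22.5, 22.6 and 35.2 FPKM in S34F and 18.8, 20.5 and 34.8 in WT. Replicate 3 was the lowest S34F library for 5 of the 19 and the lowest WT library for 3. SDF2L1, a partner of lumenal chaperones, was among these in S34F only, at 387.1, 352.7 and 262.3 FPKM against 263.4, 261.4 and 333.2 in WT. ASNS, an amino acid enzyme driven by ATF4, stayed between 16.1 and 19.01 FPKM in all 6 libraries.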
